A study of Mus musculus with 20 samples.

Results

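Cadherins and protocadherins are the adhesion genes described here, taken as every protein-coding gene of the deposited annotation whose symbol is Cdh followed by a number or begins with Pcdh. The rule gave 79 genes among 22109 protein-coding genes and 43432 genes in all. They comprise 5 type I classical cadherins, 13 type II classical cadherins, 5 further cadherins, 12 protocadherins outside the gene clusters, and 8 alpha, 22 beta and 14 gamma protocadherins of the clusters on chromosome 18. One further match, Pcdhgb8, is annotated as a polymorphic pseudogene and was left out. In the deposited annotation 14 protocadherin genes carry capital-letter symbols that the rule does not match, among them Pcdhgc3, so the alpha and gamma clusters are only partly covered. Coordinates are those of the deposited annotation, whose build is not stated.

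Their RNA was measured by sequencing of 20 libraries from 7 mouse cell groups in a study of host cells beside human SU3 glioma cells. By its label C12 (3 libraries) derives from macrophages that turned malignant in vitro next to SU3 cells washed from the peritoneum. ih_CTC (3) is given as transformed macrophages taken from a xenograft of the peritoneum, and ih_DCTC (3) as dendritic cells of bone marrow that transformed in co-culture with SU3. ih_BCTC (3) is labelled as transformed oligodendrocytes recultured from a brain tumour graft, and ih_STC_BM (3) as transformed mesenchymal stem cells cultured from a tumour in a mouse with damaged and rebuilt bone marrow. The groups that were not transformed are MDSC (3), immunosuppressive cells of myeloid origin, and MSC (2), mesenchymal stem cells from normal bone marrow. All groups carry the strain label Nude Mouse. Per the labels the cells were grown in DMEM with 10% fetal bovine serum and cultured as monoclonal cultures, in a growth text that does not name ih_BCTC. Age, sex and the number of animals or cultures behind a group were not given, so a p-value here reflects the spread between libraries alone, and that spread may be technical.

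Classical cadherins join neighbouring cells through a calcium-dependent extracellular domain and hold the actin skeleton through catenins on the inside. E-cadherin (Cdh1) is the adhesion molecule of epithelia, N-cadherin (Cdh2) that of neural and mesenchymal cells, and cadherin 11 (Cdh11) that of mesenchyme and bone-forming cells, whereas most blood cells carry little of any of them. Clustered protocadherins are made from variable first exons, each with its own promoter, and in single neurons a small random choice of these exons gives the cell a surface identity. The variable exons of the alpha and gamma clusters are spliced to constant exons that all genes of a cluster share, and the beta genes are single exons of much alike sequence. Reads from these shared stretches are divided among genes by estimation, so values of single clustered genes are uncertain.

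Expected counts per library summed to between 8794777 and 12400640, and levels are given as CPM, counts scaled by library size with TMM factors. With 3 counts over a group as the floor, the smallest level told from 0 lay between 0.0833 and 0.143 CPM. The labelled cell types were checked against fixed markers. All 8 leukocyte genes, Ptprc among them, summed to at most 42.0 CPM in any line library, against 7270.2 to 7335 in MDSC and 3738 to 5033 in MSC. The 8 macrophage genes summed to 32.9 to 191.8 CPM in the lines and the 6 dendritic genes to at most 9.46, against 1980.0 to 1985 and 2277 to 2332 in MDSC and 4185 to 4863 and 207 to 442 in MSC. In ih_BCTC the 8 oligodendrocyte genes summed to 9.16 to 11.1 CPM, with 3 of them at 0. The 8 mesenchymal genes summed to 2866 to 11530.3 CPM in the line libraries, against 22.7 to 24.5 in MDSC and 4984 to 5575 in MSC. The MSC libraries therefore held both mesenchymal and leukocyte transcripts, and in bulk RNA fewer cells of a type and less RNA per cell cannot be told apart. The share of reads in introns was 1.02% to 8.52% in the lines, 9.64% to 10.4% in MDSC and 2.07% to 3.09% in MSC.

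Of the 79 genes, 49 had counts enough for a test, 30 did not, and 9 of those 30 had no count in any library. The untested genes stayed at or under a group mean of 0.655 CPM. Genes with a group mean of at least 1 CPM numbered 19 in C12, 30 in ih_CTC, 27 in ih_DCTC, 26 in ih_BCTC, 25 in ih_STC_BM, 6 in MDSC and 27 in MSC. On a per-length scale (mean CPM per kb of exon), the leading gene was Cdh2 in C12 (8.56) and ih_CTC (13.0), Pcdh7 in ih_DCTC (11.8) and ih_BCTC (19.8), Pcdhgc4 in ih_STC_BM (22.2), Cdh17 in MDSC (1.89) and Cdh11 in MSC (14.1). The value of Pcdhgc4 rests on ih_STC_BM 1, without which it was 9.35 and that of Pcdh1 8.87. Without ih_DCTC 2, Pcdhgc4 (10.5) stood above Pcdh7 (10.2) in ih_DCTC. Pcdhgc3, which the naming rule leaves out, was not ranked, and averaged 224.7 to 519.9 CPM in the lines.

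Among type I cadherins, N-cadherin, Cdh2 (ENSMUSG00000024304, chromosome 18, 16588877 to 16809246), was at 58.8, 52.8 and 95.5 CPM in C12, 108, 116 and 90.2 in ih_CTC, 36.2, 91.3 and 55 in ih_DCTC, 109, 78.7 and 94.6 in ih_BCTC and 37.6, 22.7 and 44.4 in ih_STC_BM. Levels in the untransformed cells were 0.221, 0.24 and 0.213 in MDSC and 33 and 47.3 in MSC. Every line library lay above every MDSC library. Cdh2 rose against MDSC in C12 (log2 fold change 8.19 ± 0.50, adjusted p = 7.1e-10), ih_CTC (log2 fold change 8.79 ± 0.51, adjusted p = 3.5e-10) and ih_DCTC (log2 fold change 8.01 ± 0.50, adjusted p = 7.9e-10), by edgeR's quasi-likelihood test with Benjamini-Hochberg adjustment (± SE). Against MSC it was higher in ih_CTC (log2 fold change 1.38 ± 0.38, adjusted p = 0.0091) and ih_BCTC (log2 fold change 1.23 ± 0.38, adjusted p = 0.017). The ih_CTC call did not hold without MSC 1 (adjusted p = 0.12), nor the ih_BCTC call without ih_BCTC 1 or MSC 1 (adjusted p = 0.052 to 0.18). In C12 the log2 fold change from MSC was 0.78 ± 0.37 (adjusted p = 0.12), and ih_DCTC and ih_STC_BM overlapped the MSC libraries.

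E-cadherin, Cdh1 (ENSMUSG00000000303, chromosome 8, 106603351 to 106670246), stayed low in all groups, at 2.42, 2.3 and 3.14 CPM in C12, 0.673, 1.14 and 0.599 in ih_CTC, 0.125, 0.602 and 2.45 in ih_DCTC, 0.601, 0.43 and 2.08 in ih_BCTC and 0.987, 0.101 and 1.17 in ih_STC_BM. The untransformed groups had 2.65, 3.01 and 2.88 in MDSC and 0.104 and 0.0878 in MSC. Every MDSC and C12 library was above 2 CPM, as were ih_DCTC 3 and ih_BCTC 3, and none of C12, ih_CTC and ih_DCTC passed the test against MDSC. Against MSC, where 2 counts were found in all, Cdh1 rose in C12 (28.1-fold, 95% counting interval 7.54 to 236, adjusted p = 0.0062), ih_DCTC (11.7-fold, 95% counting interval 3.01 to 100.1, adjusted p = 0.039) and ih_BCTC (10.5-fold, 95% counting interval 2.7 to 89.99, adjusted p = 0.040). None of these held without MSC 1 or without MSC 2. P-cadherin, Cdh3 (ENSMUSG00000061048, chromosome 8, 106510913 to 106556908), named for placenta, was at 2.09, 1.64 and 4.55 CPM in C12, 1.54, 1.71 and 2.4 in ih_CTC, 0.374, 3.31 and 5.53 in ih_DCTC, 0.376, 2.93 and 2.53 in ih_BCTC and 7.4, 17.6 and 11.6 in ih_STC_BM. It had no count in any MDSC library and 0.312 and 0.0878 CPM in MSC. The ih_STC_BM libraries were the 3 highest of the 20. Cdh3 rose against MDSC in C12 (at least 26.5-fold, adjusted p = 0.00038), ih_CTC (at least 16.9-fold, adjusted p = 0.00094) and ih_DCTC (at least 29.8-fold, adjusted p = 0.00031). Against MSC it rose in ih_STC_BM (log2 fold change 5.89 ± 1.19, adjusted p = 0.0014). In the other 4 lines it also passed the test against MSC, with log2 fold changes between 3.20 and 3.92 that did not hold without MSC 1 or without MSC 2. The remaining type I genes, Cdh4 and Cdh15, were not tested.

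Among type II cadherins, the mesenchymal gene Cdh11 (ENSMUSG00000031673, chromosome 8, 102632995 to 102785111) differed widely between the lines. Its level was 0, 0.11 and 0 CPM in C12, 36.2, 40.6 and 38.1 in ih_CTC, 0, 2.03 and 22.2 in ih_DCTC, 1.13, 4.82 and 1.54 in ih_BCTC and 0, 0.304 and 0.147 in ih_STC_BM. MDSC had 0, 0.12 and 0.213 CPM and MSC 95.7 and 156. Both MSC libraries lay above all others, the ih_CTC libraries came next within a narrow range, and the ih_DCTC libraries ran from no count to 22.2 CPM. Cdh11 fell against MSC in C12 (3981-fold, 95% counting interval 714 to 157316, adjusted p = 4.5e-05), ih_DCTC (log2 fold change -3.95 ± 1.04, adjusted p = 0.0068), ih_BCTC (log2 fold change -5.66 ± 1.13, adjusted p = 0.00075) and ih_STC_BM (log2 fold change -9.52 ± 1.46, adjusted p = 8.3e-05). The ih_DCTC call did not hold in a fit of the compared groups alone (adjusted p = 0.063). DESeq2 gave Cdh11 no adjusted p in these comparisons. In ih_CTC the difference from MSC was a log2 fold change of -1.72 ± 0.98 (adjusted p = 0.19). Between the lines labelled as macrophages it was lower in C12 than in ih_CTC (1189-fold, 95% counting interval 213 to 47004, adjusted p = 0.00067), and a single test over the 5 lines gave an adjusted p of 0.00018. The summed mesenchymal markers were at least 2866 CPM in every line library, those without a Cdh11 count included.

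Cadherin 24, Cdh24 (ENSMUSG00000059674, chromosome 14, 54631992 to 54641364), which like other type II cadherins binds catenins, was found in every library, at 5.61, 7.57 and 5.1 CPM in C12, 7.5, 7.67 and 5.39 in ih_CTC, 9.46, 16.2 and 6.62 in ih_DCTC, 18.2, 16.5 and 11.8 in ih_BCTC and 13.2, 14.8 and 20.8 in ih_STC_BM. The untransformed groups had 4.31, 3.37 and 2.02 in MDSC and 0.417 and 1.23 in MSC. No MSC library reached a line library. Cdh24 rose against MSC in C12 (log2 fold change 2.84 ± 0.53, adjusted p = 0.00047), ih_CTC (log2 fold change 3.02 ± 0.53, adjusted p = 0.00026), ih_DCTC (log2 fold change 3.67 ± 0.54, adjusted p = 4.9e-05), ih_BCTC (log2 fold change 4.19 ± 0.55, adjusted p = 1.3e-05) and ih_STC_BM (log2 fold change 4.26 ± 0.55, adjusted p = 1.4e-05). Against MDSC it rose in ih_CTC (log2 fold change 1.08 ± 0.41, adjusted p = 0.032) and ih_DCTC (log2 fold change 1.73 ± 0.41, adjusted p = 0.0016). The ih_CTC call did not hold without ih_CTC 1, ih_CTC 2, MDSC 2 or MDSC 3 or under RLE scaling, with the intron share as a covariate or with the MDSC libraries summed to 1 (adjusted p = 0.061 to 0.22). Vascular endothelial cadherin, Cdh5 (ENSMUSG00000031871, chromosome 8, 104101625 to 104144502), was at 0.994, 1.44 and 0.533 CPM in MDSC, at 0.833 and 17 in MSC and at or under 0.723 in every line library. The 8 endothelial markers summed to 3.75 to 22.1 CPM over the line libraries and to 113.5 to 119 CPM in MDSC. In MDSC most of that sum was Pecam1, at 105.8 CPM on average. The sum was 9.06 CPM in MSC 1 and 72.4 in MSC 2, and all 8 markers were higher in MSC 2 than in MSC 1. Their part in the result was not tested. Cdh5 passed the test as lower in all 5 lines against MSC, but in none of them without MSC 2. Of the 13 type II genes, Cdh6 and Cdh22 also passed the filter, with group means of at most 1.9 CPM (Cdh6 in ih_BCTC) and 1.37 CPM (Cdh22 in ih_DCTC), and the other 8 were not tested.

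T-cadherin, Cdh13 (ENSMUSG00000031841, chromosome 8, 118283733 to 119324921), which is held in the membrane by a lipid anchor and has no catenin-binding tail, was at 29.6, 36 and 22 CPM in C12, 19.2, 17.5 and 15.3 in ih_CTC, 102, 27.8 and 80.5 in ih_DCTC, 25.8, 24.9 and 42.9 in ih_BCTC and 17.6, 6.49 and 0.733 in ih_STC_BM. The untransformed groups had 0, 0 and 0.213 in MDSC and 2.6 and 4.39 in MSC. All libraries of 4 lines were above both MSC libraries, while ih_STC_BM spread across them. Cdh13 rose against MDSC in C12 (379-fold, 95% counting interval 105 to 3136, adjusted p = 4.6e-06), ih_CTC (231-fold, 95% counting interval 63.7 to 1913, adjusted p = 1.3e-05) and ih_DCTC (860.3-fold, 95% counting interval 238 to 7108, adjusted p = 9.6e-07). Against MSC it rose in C12 (log2 fold change 3.05 ± 0.84, adjusted p = 0.0093), ih_CTC (log2 fold change 2.30 ± 0.81, adjusted p = 0.036), ih_DCTC (log2 fold change 4.32 ± 0.89, adjusted p = 0.0011) and ih_BCTC (log2 fold change 3.15 ± 0.84, adjusted p = 0.0070). The C12 call did not hold without MSC 1 (adjusted p = 0.11), nor the ih_BCTC call without MSC 1 (adjusted p = 0.089). The ih_CTC call did not hold without ih_CTC 1, ih_CTC 2, ih_CTC 3, MSC 1 or MSC 2 or without the low-count filter or by limma-voom (adjusted p = 0.051 to 0.23).

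Cdh17 (ENSMUSG00000028217, chromosome 4, 11758147 to 11817895), known as liver-intestine cadherin and also present on mouse B cells, had its highest level in MDSC. The line libraries had 0.11, 0.11 and 0.0784 CPM in C12, 0.865, 0.653 and 1.28 in ih_CTC, 0.125, 0.602 and 0.0907 in ih_DCTC, 0.0751, 0.258 and 0.181 in ih_BCTC and 1.11, 0.71 and 0.147 in ih_STC_BM, against 9.05, 8.9 and 7.35 in MDSC, and MSC had 0.104 and 0. The 3 MDSC libraries did not overlap any other. It fell against MDSC in C12 (86.8-fold, 95% counting interval 29.3 to 424, adjusted p = 3.9e-06), ih_CTC (log2 fold change -3.16 ± 0.63, adjusted p = 0.00039) and ih_DCTC (log2 fold change -4.80 ± 0.71, adjusted p = 1.8e-05). The B-cell genes Cd79a and Pax5, chosen after these values were seen, were at 424.6 ± 14.02 and 80.0 ± 6.05 CPM in MDSC and at or under 0.507 CPM on average in every other group. Their part in the Cdh17 level was not tested. Cdh23 (ENSMUSG00000012819, chromosome 10, 60302748 to 60696490), whose protein forms tip links in the inner ear, was at 3.08, 3.29 and 4.0 CPM in C12, 2.12, 2.45 and 3.08 in ih_CTC, 5.23, 3.39 and 6.53 in ih_DCTC, 1.65, 1.72 and 7.23 in ih_BCTC and 7.77, 5.98 and 2.35 in ih_STC_BM. The untransformed groups had 4.2, 4.33 and 3.94 in MDSC and 0.625 and 0.702 in MSC. Only the MSC libraries lay under 1 CPM. Cdh23 rose against MSC in C12 (log2 fold change 2.36 ± 0.68, adjusted p = 0.012), ih_CTC (log2 fold change 1.92 ± 0.67, adjusted p = 0.035), ih_DCTC (log2 fold change 2.90 ± 0.69, adjusted p = 0.0033), ih_BCTC (log2 fold change 2.38 ± 0.68, adjusted p = 0.010) and ih_STC_BM (log2 fold change 2.99 ± 0.69, adjusted p = 0.0029). The C12, ih_CTC and ih_BCTC calls did not hold without MSC 1 or without MSC 2, and the ih_STC_BM and ih_BCTC calls not in a fit of the compared groups alone. Cdh26 (ENSMUSG00000039155, chromosome 2, 178430531 to 178487366) varied within groups, at 0.11, 0 and 0.314 CPM in C12, 0.865, 0.735 and 0.428 in ih_CTC, 0.872, 4.97 and 0.181 in ih_DCTC, 5.86, 16.5 and 1.9 in ih_BCTC and 7.4, 0.101 and 0.88 in ih_STC_BM. It had no count in MDSC and 0.208 and 0.0878 CPM in MSC. It was higher in ih_BCTC than in MSC (56.6-fold, 95% counting interval 19.2 to 276, adjusted p = 0.021), not without ih_BCTC 2, MSC 1 or MSC 2 (adjusted p = 0.060 to 0.14). It was also higher in ih_DCTC than in MDSC (at least 20.7-fold, adjusted p = 0.0099), not without ih_DCTC 2 or with the intron share as a covariate or with the MDSC libraries summed to 1 (adjusted p = 0.057 to 0.084).

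**Figure D1:**
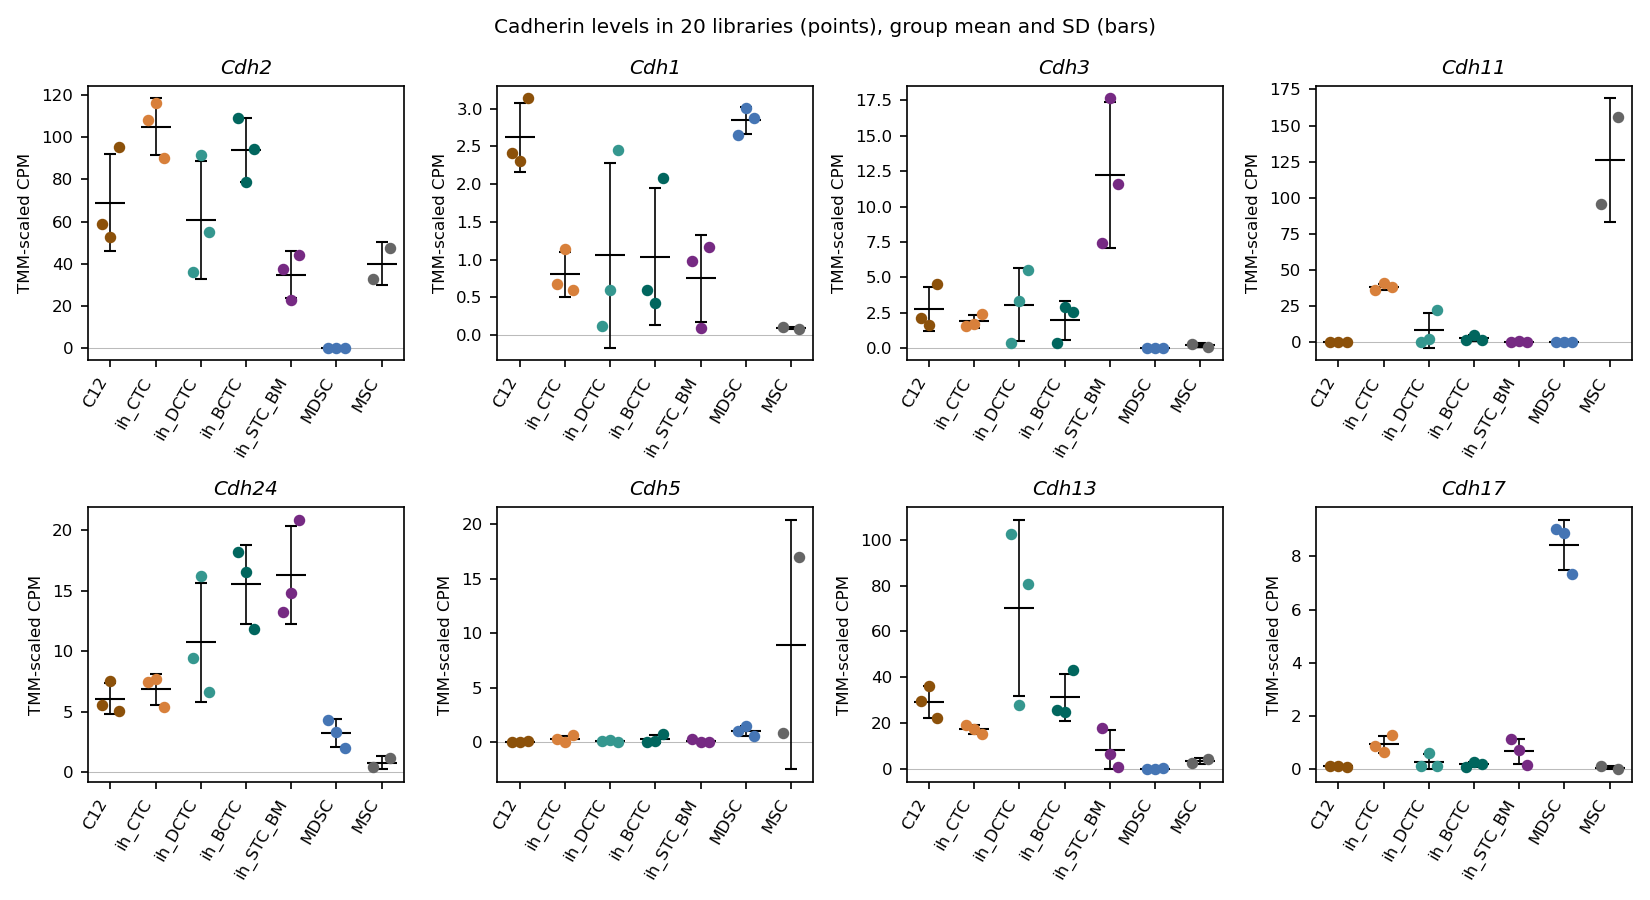
Levels of 8 cadherin genes in TMM-scaled CPM (vertical axis, linear, its own range in each panel) by group; each point is a library and the bars give the mean and SD of the group. The 3 MDSC libraries sit near 0 for Cdh2 and Cdh13 and highest for Cdh17 (7.35 to 9.05 CPM), and the 2 MSC libraries are highest for Cdh11 (95.7 and 156 CPM).

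Among protocadherins outside the clusters, Pcdh7 (ENSMUSG00000029108, chromosome 5, 57718021 to 58133234) separated the lines into a high and a low set. It was at 12.7, 7.35 and 12.8 CPM in C12, 102, 124 and 78.1 in ih_CTC, 39.97, 157 and 177 in ih_DCTC, 216, 117 and 296 in ih_BCTC and 3.7, 1.82 and 0.587 in ih_STC_BM. MDSC had 0.994, 0.842 and 1.28 CPM and MSC 20.2 and 24.3. The ih_CTC, ih_DCTC and ih_BCTC libraries were all above both MSC libraries, and the C12 and ih_STC_BM libraries were all below them. Pcdh7 rose against MSC in ih_CTC (log2 fold change 2.19 ± 0.60, adjusted p = 0.0093), ih_DCTC (log2 fold change 2.49 ± 0.61, adjusted p = 0.0043) and ih_BCTC (log2 fold change 3.23 ± 0.64, adjusted p = 0.00068). It fell in ih_STC_BM (log2 fold change -3.43 ± 0.61, adjusted p = 0.00034). The ih_CTC call did not hold without MSC 1 or MSC 2 or with the intron share as a covariate (adjusted p = 0.056 to 0.095), nor the ih_DCTC call without MSC 1 (adjusted p = 0.058). In C12 the log2 fold change from MSC was -1.02 ± 0.56 (adjusted p = 0.17). Against MDSC it rose in C12 (log2 fold change 3.38 ± 0.61, adjusted p = 0.00014), ih_CTC (log2 fold change 6.59 ± 0.66, adjusted p = 2.2e-07) and ih_DCTC (log2 fold change 6.89 ± 0.67, adjusted p = 1.4e-07). The single test over the 5 lines gave an adjusted p of 3.6e-06, which is the smallest among the 49 genes, and C12 was lower than ih_CTC (log2 fold change -3.21 ± 0.54, adjusted p = 0.00080).

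Pcdh19 (ENSMUSG00000051323, chromosome X, 133582860 to 133688987), an X-linked adhesion gene of the brain that pairs with N-cadherin, was at 23.6, 10.2 and 49.9 CPM in C12, 50.9, 57.6 and 49.5 in ih_CTC, 13.6, 38.8 and 32.3 in ih_DCTC, 59.3, 66.9 and 75.9 in ih_BCTC and 85, 124 and 27.6 in ih_STC_BM. The untransformed groups had 0, 0 and 0.107 in MDSC and 8.75 and 21.8 in MSC. It rose against MDSC in C12 (815-fold, 95% counting interval 146 to 32243, adjusted p = 6.8e-07), ih_CTC (1413-fold, 95% counting interval 253 to 55843, adjusted p = 2.1e-07) and ih_DCTC (811-fold, 95% counting interval 145 to 32084, adjusted p = 6.4e-07). Against MSC it rose in ih_CTC (log2 fold change 1.78 ± 0.66, adjusted p = 0.044), ih_BCTC (log2 fold change 2.14 ± 0.67, adjusted p = 0.018) and ih_STC_BM (log2 fold change 2.36 ± 0.68, adjusted p = 0.013). Without MSC 1 none of the 3 calls held (adjusted p = 0.15 to 0.32). Pcdh18 (ENSMUSG00000037892, chromosome 3, 49743296 to 49757325) was at 9.23, 4.5 and 5.8 CPM in C12, 20.5, 25.5 and 14.6 in ih_CTC, 5.6, 26 and 22.8 in ih_DCTC, 23.4, 40.1 and 12 in ih_BCTC and 11.6, 20.7 and 3.23 in ih_STC_BM. It had no count in MDSC and 3.02 and 9.13 CPM in MSC. It rose against MDSC in C12 (at least 57.3-fold, adjusted p = 6.4e-05), ih_CTC (at least 181-fold, adjusted p = 7.7e-06) and ih_DCTC (at least 177-fold, adjusted p = 9.0e-06), and no line passed the test against MSC. Both genes had at most 1 count over the 3 MDSC libraries and at least 3 CPM in every line library.

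The upstream bases of Pcdh7, Pcdh18 and Pcdh19 are shown as those of 3 protocadherins whose levels across the lines are given above; in ih_STC_BM Pcdh19 averaged 78.7 ± 48.4 CPM and Pcdh7 2.04 ± 1.57. They come from RefSeq on GRCm38.p6, 5′ to 3′ on the gene's strand, up to the start of the deposited gene model; capitals mark GC boxes (GGGCGG or its complement CCGCCC) and CCAAT boxes (CCAAT or its complement ATTGG).
Pcdh7 promoter, chr5:57717831-57718020, plus strand: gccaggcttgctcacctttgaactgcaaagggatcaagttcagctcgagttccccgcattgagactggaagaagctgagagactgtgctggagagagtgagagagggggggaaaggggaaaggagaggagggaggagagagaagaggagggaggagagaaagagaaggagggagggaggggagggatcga
Pcdh18 promoter, chr3:49757326-49757566, minus strand: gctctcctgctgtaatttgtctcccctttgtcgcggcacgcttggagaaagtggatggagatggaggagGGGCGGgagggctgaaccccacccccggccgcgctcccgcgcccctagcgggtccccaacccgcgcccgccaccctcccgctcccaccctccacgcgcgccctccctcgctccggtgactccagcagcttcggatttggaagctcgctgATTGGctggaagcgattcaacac
Pcdh19 promoter, chrX:133688994-133689243, minus strand: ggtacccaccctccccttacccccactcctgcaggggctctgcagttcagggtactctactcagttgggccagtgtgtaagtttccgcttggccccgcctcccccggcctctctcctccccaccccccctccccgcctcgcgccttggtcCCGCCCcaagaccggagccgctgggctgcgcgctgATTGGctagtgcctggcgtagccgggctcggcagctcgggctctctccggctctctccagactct
Over the 250 bases before the RefSeq start, Pcdh18 and Pcdh19 held 23 and 16 CpG dinucleotides and 1 GC box and 1 CCAAT box each, and Pcdh7 held 7 CpG and neither box. The E-box CAGGTG and the TATA box TATAAA were found in none of the 3 on either strand. Of 32817 mouse promoter windows of the same length, 32.7% held a GC box, 33.8% a CCAAT box, 17.2% the E-box and 12.4% the TATA box, and the median was 6 CpG. The longest run shared by Pcdh18 and Pcdh19 was the 12 bases CGCTGATTGGCT, which 56 of the 32817 windows (0.171%) held on either strand. It includes the CCAAT box counted above. Pcdh7 shared at most 8 bases with Pcdh18 and 9 with Pcdh19, runs held by 5.66% and 1.62% of the windows. Each run was picked as the longest of its pair, so these shares do not measure how often 2 promoters share a run of that length. A match is a description of letters and not a site.

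Pcdh1 (ENSMUSG00000051375, chromosome 18, 38185914 to 38212053), a protocadherin of airway epithelium in humans, was at 41.9, 61.1 and 43.1 CPM in C12, 22.8, 24.2 and 27.4 in ih_CTC, 30.3, 11.4 and 40.3 in ih_DCTC, 7.51, 11.1 and 15.6 in ih_BCTC and 130.2, 75.4 and 80.7 in ih_STC_BM. The untransformed groups had 0.221, 0.12 and 0.107 in MDSC and 4.79 and 19.1 in MSC. The ih_STC_BM libraries were the 3 highest of the 20. Pcdh1 rose against MDSC in C12 (log2 fold change 8.24 ± 0.71, adjusted p = 3.6e-08), ih_CTC (log2 fold change 7.26 ± 0.71, adjusted p = 1.4e-07) and ih_DCTC (log2 fold change 7.40 ± 0.71, adjusted p = 1.1e-07). Against MSC it rose in C12 (log2 fold change 2.02 ± 0.55, adjusted p = 0.0083) and ih_STC_BM (log2 fold change 3.0 ± 0.57, adjusted p = 0.00066). The C12 call did not hold without MSC 1 (adjusted p = 0.12). Pcdh17, at lower levels, averaged 0.361 ± 0.278 CPM in C12, 4.64 ± 0.227 in ih_CTC, 1.58 ± 0.731 in ih_DCTC, 2.55 ± 0.809 in ih_BCTC and 0.15 ± 0.132 in ih_STC_BM (SD, n = 3 each). It was at 0.451 ± 0.119 CPM in MDSC and 0.176 ± 0.248 in MSC (n = 2). As with Pcdh7 and Cdh11, C12 was lower than ih_CTC (log2 fold change -3.65 ± 0.71, adjusted p = 0.0023). Pcdh9 averaged 1.12 to 3.67 CPM over the 5 lines, 0.0368 in MDSC and 0.576 in MSC. It rose against MDSC in C12, ih_CTC and ih_DCTC (33.7-fold, 95% counting interval 5.7 to 1364, adjusted p = 0.0017; 98.2-fold, 95% counting interval 17.3 to 3909, adjusted p = 7.8e-05; 57.9-fold, 95% counting interval 10.1 to 2319, adjusted p = 0.00036), where MDSC had 1 count in all. Pcdh12, an endothelial protocadherin, had at most 2 counts in any group and was not tested. Of the 12 genes, Pcdh8, Pcdh11x and Pcdh15 were not tested either.

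**Figure D2:**
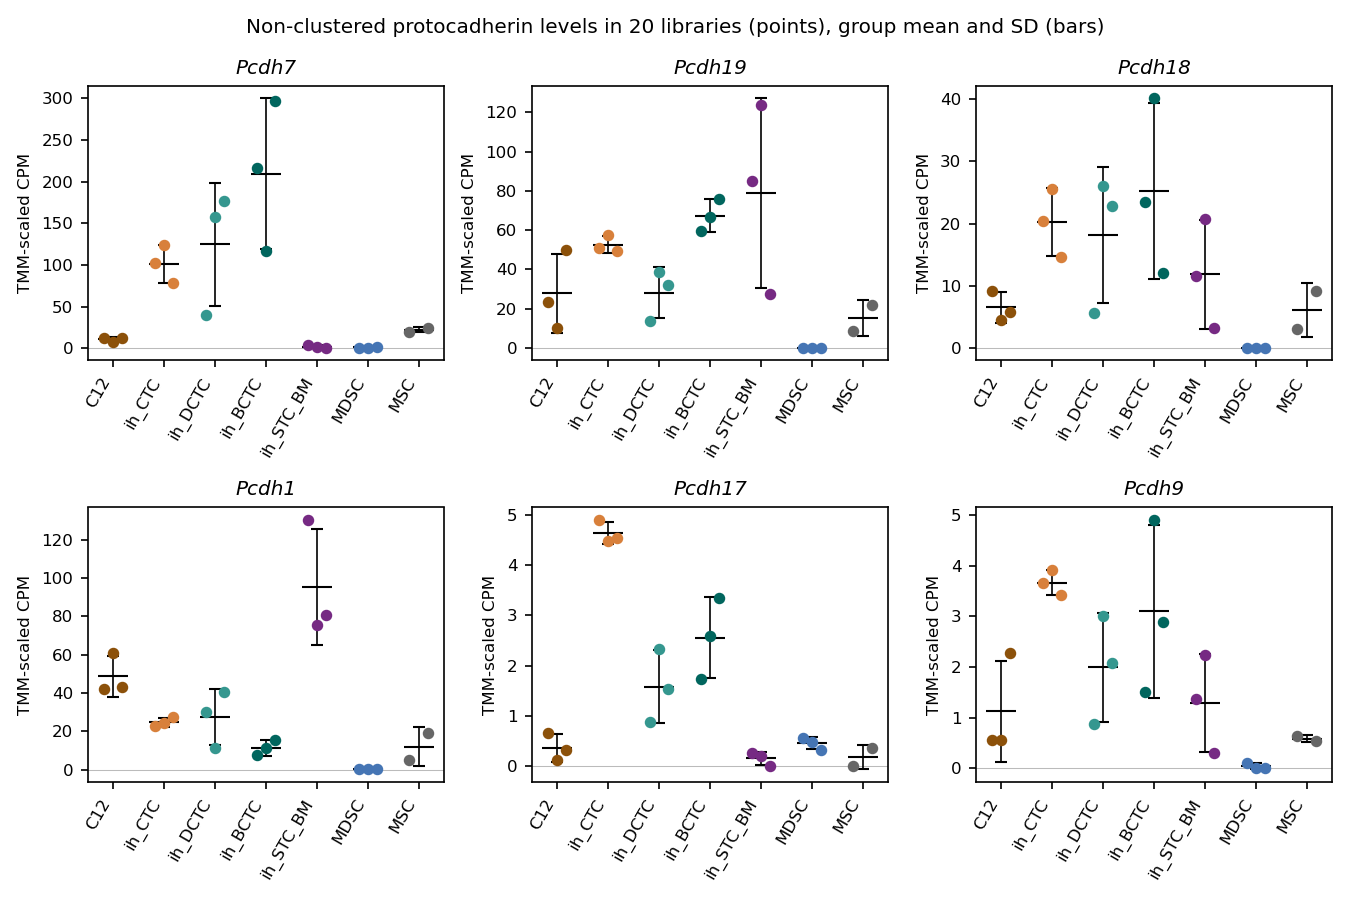
Levels of 6 protocadherins outside the clusters in TMM-scaled CPM (vertical axis, linear, its own range in each panel) by group; points are libraries and bars the group mean and SD. Pcdh7 is above both MSC libraries (20.2 and 24.3 CPM) in every ih_CTC, ih_DCTC and ih_BCTC library and below them in every C12 and ih_STC_BM library, while Pcdh1 is highest in the 3 ih_STC_BM libraries (75.4 to 130 CPM).

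In the beta cluster, 15 of 22 genes were tested, and the summed level was 11.4 ± 4.96 CPM in C12, 81.4 ± 10.5 in ih_CTC, 25.0 ± 5.75 in ih_DCTC, 31.5 ± 8.24 in ih_BCTC and 23.7 ± 10.3 in ih_STC_BM (SD, n = 3 each). MDSC had 0.399 ± 0.318 CPM and MSC 14.9 ± 0.568 (n = 2). The ih_CTC libraries were above all others and the MDSC libraries below all others. Beta genes over 1 CPM in every library of a group numbered 1 in C12, 13 in ih_CTC, 6 in ih_DCTC, 7 in ih_BCTC, 5 in ih_STC_BM, 0 in MDSC and 3 in MSC, and Pcdhb22 was among them in each group but MDSC. Pcdhb16 (ENSMUSG00000047910, chromosome 18, 37477814 to 37483038) was at 1.32, 0.439 and 1.96 CPM in C12, 17.8, 19.6 and 15.5 in ih_CTC, 1.25, 2.11 and 1.18 in ih_DCTC, 2.4, 3.79 and 3.53 in ih_BCTC and 3.7, 4.56 and 1.61 in ih_STC_BM. Levels of Pcdhb16 were 0.11, 0 and 0.107 in MDSC and 0.521 and 1.32 in MSC. The ih_CTC libraries were at least 15.5 CPM and no other library passed 4.56 CPM. Pcdhb9 was at 1.43, 0.548 and 0.549 CPM in C12, 12.8, 11.6 and 17.6 in ih_CTC, 2.99, 2.93 and 4.17 in ih_DCTC, 1.05, 3.7 and 3.16 in ih_BCTC and 2.34, 3.35 and 1.32 in ih_STC_BM. Levels of Pcdhb9 were 0, 0 and 0.107 in MDSC and 0.208 and 1.76 in MSC. Pcdhb5 was at 0.659, 0.767 and 0.314 CPM in C12, 5.87, 7.84 and 11.5 in ih_CTC, 1.62, 1.88 and 1.27 in ih_DCTC, 1.05, 1.72 and 1.9 in ih_BCTC and 3.33, 2.64 and 1.91 in ih_STC_BM. Levels of Pcdhb5 were 0, 0 and 0.107 in MDSC and 0.417 and 0.527 in MSC. For all 3 genes the ih_CTC libraries lay above every other library.

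Pcdhb17 was at 0.33, 0 and 2.43 CPM in C12, 6.25, 9.3 and 8.65 in ih_CTC, 2.12, 2.93 and 3.08 in ih_DCTC, 3.38, 4.39 and 3.62 in ih_BCTC and 3.08, 4.76 and 0.733 in ih_STC_BM. Levels of Pcdhb17 were 0.11, 0 and 0 in MDSC and 1.98 and 1.58 in MSC. Pcdhb22 was at 2.2, 2.52 and 5.1 CPM in C12, 5.0, 6.61 and 8.13 in ih_CTC, 3.24, 5.72 and 5.35 in ih_DCTC, 5.93, 7.57 and 5.88 in ih_BCTC and 3.45, 2.43 and 2.2 in ih_STC_BM. Levels of Pcdhb22 were 0.11, 0.12 and 0.107 in MDSC and 3.23 and 3.16 in MSC. The Pcdhb17 levels of ih_CTC lay above all others, and the ih_CTC levels of Pcdhb22 overlapped those of C12, ih_DCTC and ih_BCTC. Against MDSC, 11 of the 15 tested beta genes rose in C12, 15 in ih_CTC and 14 in ih_DCTC, and none fell, beside 31.3%, 28.2% and 31.2% of all genes that rose. These 15 are the beta genes that passed the filter on low counts, and one that passed it through a line alone had to differ from MDSC, so this count supports nothing. Against MSC none passed the test in C12, 8 rose in ih_CTC, 3 in ih_DCTC and 4 in ih_BCTC. In ih_STC_BM 4 rose and 1, Pcdhb14, fell. Of all genes 14.7% to 16% rose and 17.4% to 20.8% fell. Beta genes that passed the filter through lines and not MSC could hardly differ but upward, so these counts support nothing. Pcdhb8, at 1.35 CPM in ih_CTC and 0.0439 in MSC on average, is an example. Pcdhb16 in ih_CTC was above MSC (log2 fold change 4.23 ± 0.67, adjusted p = 0.00010), as were Pcdhb5 (log2 fold change 4.11 ± 0.63, adjusted p = 6.8e-05) and Pcdhb9 (log2 fold change 3.79 ± 0.79, adjusted p = 0.0012). Within the lines labelled as macrophages, 11 of 15 were lower in C12 than in ih_CTC, beside 6.9% of all genes. Some of them, such as Pcdhb8 and Pcdhb11, passed the filter through ih_CTC alone and had to differ, so this count is no support either. The 11 include Pcdhb16 (log2 fold change -3.79 ± 0.55, adjusted p = 0.00022) and Pcdhb5 (log2 fold change -3.85 ± 0.52, adjusted p = 0.00012).

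The gamma genes showed another distribution. In MSC, 11 of 14 were over 1 CPM in both libraries at 1.14 to 3.95 CPM apart from Pcdhgc4, whereas the lines had fewer. Genes over 1 CPM in every library were Pcdhga1, Pcdhga4 and Pcdhga10 in C12, Pcdhgb2, Pcdhgb7 and Pcdhgc4 in ih_CTC, Pcdhgc4 in ih_DCTC, none in ih_BCTC, Pcdhgb1, Pcdhga6, Pcdhgb6 and Pcdhgc4 in ih_STC_BM, and none in MDSC. Pcdhgb1 (ENSMUSG00000103037, chromosome 18, 37680233 to 37841870) was at 15.7, 6.28 and 10.1 CPM in ih_STC_BM, at most 0.408 CPM in any library of another line, 0 in MDSC and 1.77 and 1.14 in MSC. It was higher in ih_STC_BM than in MSC (log2 fold change 2.87 ± 0.99, adjusted p = 0.046), not without ih_STC_BM 1, ih_STC_BM 3, MSC 1 or MSC 2 or by DESeq2 or without the 5 line libraries under 3% intron reads (adjusted p = 0.058 to 0.45). The test over the 5 lines gave an adjusted p of 0.00012. Pcdhga10 (ENSMUSG00000102222, chromosome 18, 37746993 to 37841873) was at 7.91, 5.48 and 2.9 CPM in C12, at most 0.247 in any library of another line, 0 in MDSC and 1.98 and 1.14 in MSC. It was higher in C12 than in MDSC (at least 45.8-fold, adjusted p = 0.00014) and than in ih_CTC (88.1-fold, 95% counting interval 24 to 734, adjusted p = 0.0021), with an adjusted p of 0.00015 over the 5 lines.

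Against MSC, 7 of the 14 gamma genes fell in C12, 8 in ih_CTC, 9 in ih_DCTC, 9 in ih_BCTC and 7 in ih_STC_BM. Of all genes 17.4% to 20.8% fell. The 1 of the 14 that rose was Pcdhgb1 in ih_STC_BM. Pcdhgc3, a gamma gene that the naming rule leaves out, rose against MSC in all 5 lines (edgeR log2 fold change 2.32 to 3.53, adjusted p of at most 5.2e-05). Pcdhga7, Pcdhgb4 and Pcdhgb5 fell in all 5 lines, with group means of at most 0.135 CPM in the lines and 1.72 to 2.02 CPM in MSC. Those 5 comparisons share the 2 MSC libraries. Pcdhga7, Pcdhgb4 and Pcdhgb5 passed the filter on low counts through MSC alone, so they had to come out lower in the lines. The counts of gamma genes that fell therefore support nothing. Against MDSC, 5 gamma genes rose in C12, 3 in ih_CTC and 3 in ih_DCTC, beside 28.2% to 31.3% of all genes. None of the 8 alpha genes was tested, and their summed level was at most 1.15 CPM in any library.

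**Figure D3:**
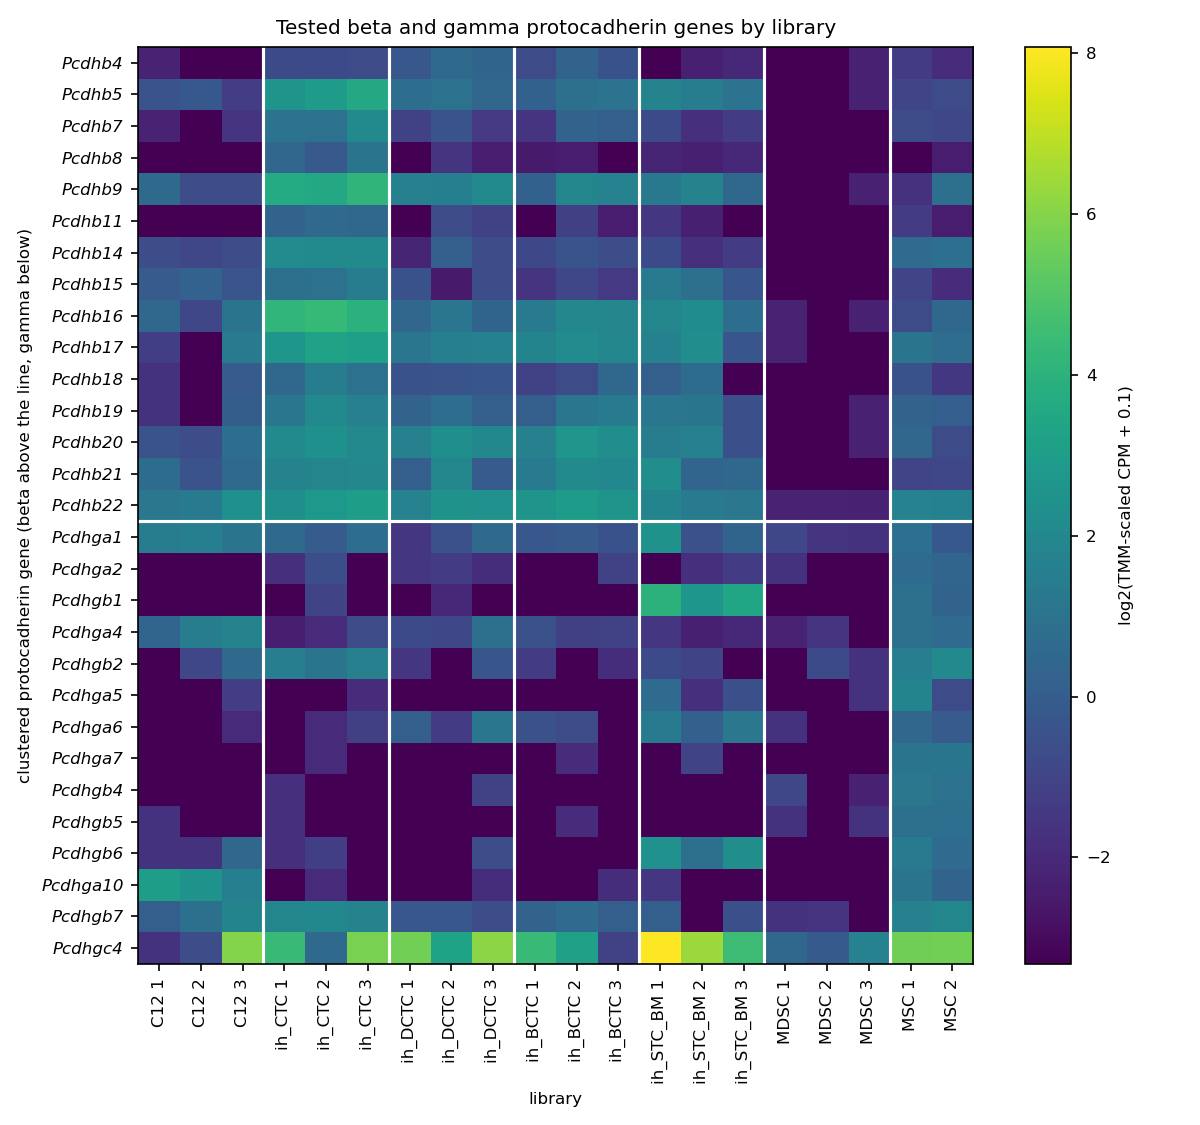
Levels of the 15 tested beta genes (above the horizontal line) and 14 gamma genes (below it) as log2(TMM-scaled CPM + 0.1), in chromosome order, in the 20 libraries (columns, groups parted by vertical lines). Pcdhb5, Pcdhb9, Pcdhb16 and Pcdhb17 are brightest in ih_CTC, Pcdhgb1 in ih_STC_BM and Pcdhga10 in C12, and the MSC libraries hold most gamma genes at a moderate level.

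Pcdhgc4 (ENSMUSG00000023036, chromosome 18, 37815079 to 37841873), a gamma gene of the C type that in mouse is needed for the survival of spinal interneurons, varied widely within groups. It was at 0.22, 0.548 and 61.8 CPM in C12, 20.2, 1.39 and 53.9 in ih_CTC, 50.6, 9.55 and 67.1 in ih_DCTC, 21, 9.12 and 0.362 in ih_BCTC and 269, 82.2 and 22.4 in ih_STC_BM. Levels of Pcdhgc4 were 1.33, 0.842 and 3.2 in MDSC and 48.1 and 50.4 in MSC. In C12 nearly all counts were in C12 3. It was higher in ih_DCTC than in MDSC (log2 fold change 4.55 ± 1.73, adjusted p = 0.031). The call did not hold without ih_DCTC 1, ih_DCTC 3, MDSC 1, MDSC 2 or MDSC 3 or without the low-count filter, by limma-voom, with the intron share as a covariate or with the MDSC libraries summed to 1 (adjusted p = 0.054 to 0.23). Pcdhgc3, the neighbouring C-type gene with the same constant exons, carries another symbol in the files and is no member. It was at 313 ± 89.96 CPM in C12, 512 ± 89.4 in ih_CTC, 224.7 ± 23.0 in ih_DCTC, 229.8 ± 38.9 in ih_BCTC and 519.9 ± 85.9 in ih_STC_BM, against 0.563 ± 0.123 in MDSC and 45.0 ± 20.4 in MSC. Pcdhgc4 made up 0.0637% to 22.6% of the sum of both genes in C12, 0.234% to 11.5% in ih_CTC, 4.20% to 24.6% in ih_DCTC, 0.175% to 9.18% in ih_BCTC, 4.72% to 30.3% in ih_STC_BM, and 45.9% and 61.1% in MSC. The sum itself was at 274 to 384 CPM in C12, 469.5 to 593 in ih_CTC, 228 to 301 in ih_DCTC, 207 to 284 in ih_BCTC and 475.7 to 885 in ih_STC_BM, against 1.44 to 3.62 in MDSC and 78.7 to 109.8 in MSC. Whether the spread of Pcdhgc4 comes from dividing shared reads between both genes was not tested.

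**Figure D4:**
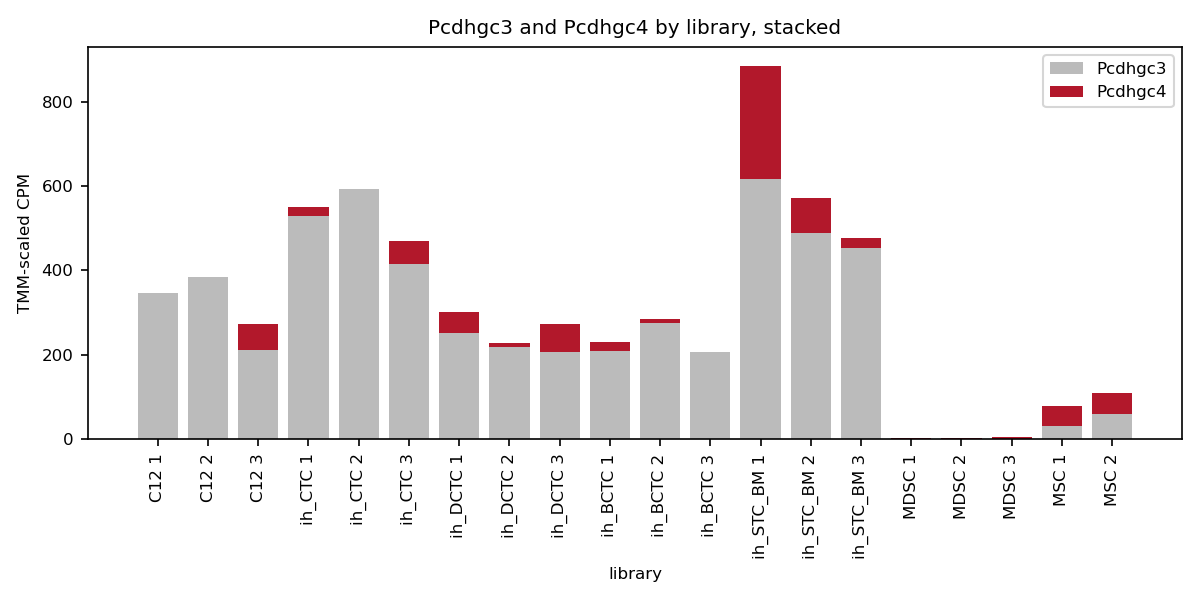
Pcdhgc3 (grey) and Pcdhgc4 (red) levels stacked, in TMM-scaled CPM from 0, for each of the 20 libraries. The red part ranges from 0.22 to 61.8 CPM within C12 while the stacked total ranges from 274 to 384 CPM.

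Counted over the 49 tested genes, the differences from MDSC ran mostly upward. A gene enters the test only if some group expresses it, so these counts describe the tested genes and not all 79. In MDSC 6 of the 79 reached a group mean of 1 CPM, so most tested genes passed the filter through other groups. A gene that passed it through a line could hardly differ from MDSC but upward. The counts and medians below therefore support no shift of the family. In C12, 25 rose and 2 fell against MDSC, where 31.3% of all 15779 tested genes rose and 30.5% fell (61.7% together). In ih_CTC, 31 rose and 1 fell, beside 28.2% and 27.1% of all genes (55.3% together). In ih_DCTC 32 rose and 1 fell, beside 31.2% and 28.1% (59.3% together). The genes that fell were Cdh17 in all 3 lines and Cdh5 in C12 (30.1-fold, 95% counting interval 4.94 to 1234, adjusted p = 0.023). The Cdh5 call did not hold without C12 1 or C12 2 or without the 5 line libraries under 3% intron reads, with the intron share as a covariate or with the MDSC libraries summed to 1 (adjusted p = 0.064 to 0.59). The median log2 fold change of the 49 genes was 3.49 in C12, 5.67 in ih_CTC and 4.67 in ih_DCTC, and 1.90, 3.51 and 2.60 with genes at 0 counts held at their bound, against medians of 0.03, 0.08 and 0.09 over all genes tested. The 3 comparisons share the MDSC libraries. The MDSC libraries differed from each other by little more than sampling noise. With them summed to 1, fewer members and also fewer of all genes passed in each of the 3 lines. In a fit of the compared groups alone, which tested 17 members each in C12 and ih_DCTC, the calls numbered 14 and 15. Of all genes in that fit, 4793 of 13830 rose and 4561 fell in C12, and 4645 of 13841 rose and 4275 fell in ih_DCTC.

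Against MSC members were called in both directions in every line. The share of the 49 that passed was 32.7% in C12, 55.1% in ih_CTC, 44.9% in ih_DCTC, 57.1% in ih_BCTC and 46.9% in ih_STC_BM. In C12, 6 of the 49 rose and 10 fell, beside 14.7% and 18.4% of all genes (33.1% together). In ih_CTC, 18 rose and 9 fell, beside 14.7% and 19.9% (34.6% together). In ih_DCTC, 11 rose and 11 fell, beside 16% and 18.1% (34.1% together). In ih_BCTC, 17 rose and 11 fell, beside 15.9% and 20.8% (36.7% together). In ih_STC_BM, 11 rose and 12 fell, beside 14.8% and 17.4% (32.1% together). The median log2 fold changes of the members were -0.18, 1.73, 0.61, 0.80 and 0.70 in that order of lines, and 0.00, 1.53, 0.61, 0.80 and 0.59 with bounds, against 0.00 to 0.05 over all genes. A member that passed the filter through lines and not MSC could hardly differ but upward. One that passed it through MSC alone had to fall. These counts and medians therefore support no shift of the family. Cdh3, Cdh23 and Cdh24 rose in all 5 lines, and Cdh5, Pcdhga7, Pcdhgb4 and Pcdhgb5 fell in all 5. All these calls rest on the same 2 MSC libraries. Most of those of Cdh3 and Cdh23, and all of Cdh5, did not hold with 1 MSC library left out. Pcdhga7, Pcdhgb4 and Pcdhgb5 passed the low-count filter through MSC alone. With either MSC library left out, fewer members and also fewer of all genes passed in each of the 5 lines. The remaining MSC library is then assumed to vary like the other groups. In MDSC against MSC, 4 rose, namely Cdh1, Cdh17, Cdh23 and Cdh24, and 35 fell, beside 20.4% and 25.6% of all genes (46% together). Their median log2 fold change was -4.18, or -3.57 with bounds, against -0.07 over all genes. Members that passed the filter through MSC and not MDSC had to fall, so this count and median support no shift either.

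**Figure D5:**
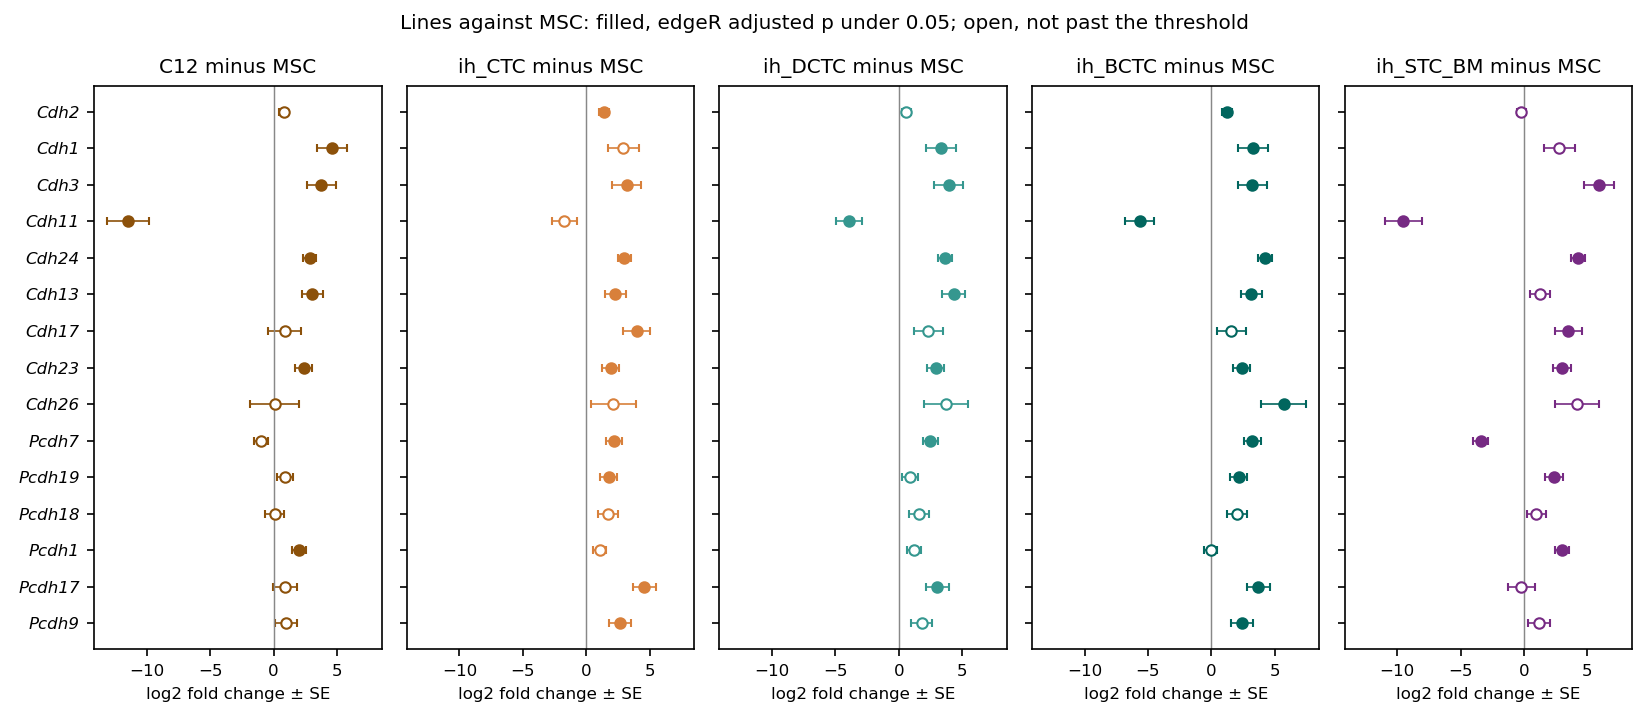
Log2 fold change (horizontal axis, with SE) of 15 members in each line minus MSC; filled points passed edgeR at an adjusted p under 0.05 and open points did not. Cdh24 and Cdh23 lie right of 0 in all 5 panels, Cdh11 lies left of 0 in all 5 (open in ih_CTC), and Pcdh7 lies right in ih_CTC, ih_DCTC and ih_BCTC and left in C12 (open) and ih_STC_BM.

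Between lines, 32 of 49 members passed a single test for any difference among the 5, beside 33.2% of all genes. They comprised 2 of 3 tested type I genes, 4 of 5 type II, 3 of 4 further cadherins, 4 of 8 protocadherins outside the clusters, 11 of 15 beta genes and 8 of 14 gamma genes. Members that passed the filter through a single line, such as Pcdhb8 and Pcdhb11 through ih_CTC, had to differ. The counts over the 5 lines therefore support nothing. C12 and ih_CTC, which carry the same macrophage label, differed in 17 members, 2 higher in C12 (Pcdhga4 and Pcdhga10) and 15 lower, beside 9.6% and 6.9% of all genes (16.5% together). The median log2 fold change of the 49 was -1.98, or -1.44 with bounds, against 0.00 over all genes. Of the 15 lower members 11 were beta genes, some of which passed the filter through ih_CTC alone and had to differ. This count and median therefore support no shift of the family. Leaving out 1 library of either group gave 12 to 23 calls. ih_DCTC and ih_BCTC, which carry different labels, differed in 0 of 49 members and 0% of all genes by edgeR. Without ih_DCTC 2, 352 of all genes were higher and 138 lower in ih_DCTC. At an unadjusted p under 0.05 there were 3 members by edgeR, or 6.12%, beside 10.2% of all genes. There were 4 by DESeq2 and 6 by limma-voom, without a share of all genes to set beside them. After adjustment DESeq2 called 103 genes in all but no member. The SE of such a difference was large for single genes, as in Cdh11 (log2 fold change 1.71 ± 0.96), so likeness of both lines is not shown.

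Catenins and their relatives join cadherins to the cytoskeleton. The counts of this and the following lists stand beside those of all genes, of which 28.2% to 31.3% rose and 27.1% to 30.5% fell against MDSC, and 14.7% to 16% rose and 17.4% to 20.8% fell against MSC. Of 12 listed cytoplasmic partners 10 were tested. Against MDSC, 7 of them rose in each of C12, ih_CTC and ih_DCTC, and 1 fell in ih_CTC. The p120 catenin gene Ctnnd1 averaged 213, 186 and 157 CPM in the 3 lines, against 17.8 in MDSC, and the alpha-catenin gene Ctnna1 326, 427 and 268 CPM, against 93.5. Against MSC, of the same 10, 3 rose in C12, 3 rose and 2 fell in ih_CTC, 1 rose and 1 fell in ih_DCTC and in ih_BCTC, and 4 rose and 2 fell in ih_STC_BM. Of 8 proteases that cleave cadherins, none rose against MSC in any line, and 5 fell in C12, 7 in ih_CTC, 6 in ih_DCTC, 5 in ih_BCTC and 5 in ih_STC_BM. Against MDSC 2 of these 8 rose and 4 fell in C12, 1 rose and 5 fell in ih_CTC, and 1 rose and 4 fell in ih_DCTC. Psen2, a catalytic subunit of gamma-secretase, averaged 3.59 CPM in ih_BCTC, against 91.4 in MSC (log2 fold change -4.67, adjusted p = 1.4e-06).

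Of 21 other genes of the cadherin superfamily 12 were tested, and 10 of them differed among the 5 lines, beside 33.2% of all genes. A gene that passed the filter on low counts through some lines alone could hardly fail to differ, so this count supports nothing. Against MDSC 6 rose and 2 fell in C12, 5 rose and 3 fell in ih_CTC, and 6 rose and 1 fell in ih_DCTC. Against MSC 4 rose and 4 fell in C12, 2 and 3 in ih_CTC, 4 and 2 in ih_DCTC, 4 and 4 in ih_BCTC, and 3 and 5 in ih_STC_BM. The giant cadherin gene Fat1 averaged 67.9, 179 and 185 CPM in C12, ih_CTC and ih_DCTC, against 0.44 in MDSC. Fat4 averaged 22.7 CPM in ih_BCTC and 19.6 in ih_DCTC but 0.0365 in C12. Of 8 transcription factors known to repress Cdh1, 5 rose and 1 fell against MSC in C12, ih_DCTC, ih_BCTC and ih_STC_BM alike, and 3 rose in ih_CTC. Against MDSC 4 rose and 2 fell in C12, 4 rose in ih_CTC, and 4 rose and 1 fell in ih_DCTC. Twist1 averaged 154 ± 32.6 CPM in ih_DCTC, against 0.265 ± 0.0831 in MDSC (SD, n = 3 each).

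Of 9 transcription factors that promote epithelial genes 4 were tested. Against MDSC 1 rose and 2 fell in C12 and in ih_CTC and 2 rose and 2 fell in ih_DCTC. Against MSC 1 rose and 1 fell in C12, 2 rose in ih_DCTC and in ih_BCTC, 1 fell in ih_STC_BM and none passed in ih_CTC. The 8 epithelial markers summed to 19.99 to 85.0 CPM in C12, 1.54 to 6.06 in ih_CTC, 3.46 to 32.9 in ih_DCTC, 3.18 to 12.4 in ih_BCTC and 20.97 to 44.1 in ih_STC_BM, against 13.0 to 15.9 in MDSC and 1.35 to 9.92 in MSC. In C12 most of the epithelial sum was Krt18 and Krt19, at 19.95 and 26.06 CPM on average. In ih_STC_BM most of it was Krt18, at 28.996 CPM, and in MDSC Epcam, at 11.32 CPM. Epcam averaged 0.726 CPM in C12 and 0.0489 CPM in ih_STC_BM. Whether any line has an epithelial character was not tested. All 11 regulators of the clustered genes were tested. None fell against MSC, 5 rose in ih_BCTC, 2 in ih_CTC, 2 in ih_DCTC, 1 in ih_STC_BM and 0 in C12, while against MDSC 6 fell in C12, 2 rose and 1 fell in ih_CTC, and 2 rose and 3 fell in ih_DCTC. The insulator gene Ctcf averaged 36.2, 67.3 and 53.1 CPM in C12, ih_CTC and ih_DCTC, against 165 in MDSC. Among the 5 lines, where 33.2% of all genes passed the single test, so did 4 of 10 partners, 3 of 8 proteases, 3 of 11 regulators, 2 of 8 Cdh1 repressors and 2 of 4 epithelial factors, and none of any list differed between ih_DCTC and ih_BCTC. The median log2 fold changes against MDSC in C12, ih_CTC and ih_DCTC were 1.92, 1.64 and 1.76 for the cytoplasmic partners, -0.68, -1.06 and -0.77 for the proteases and 1.71, 0.71 and 1.31 for the other superfamily genes. They were -1.05, -0.42 and -0.98 for the regulators, 1.32, 1.21 and 1.78 for the Cdh1 repressors and -1.18, -1.24 and 0.29 for the epithelial factors, beside 0.03, 0.08 and 0.09 over all genes.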

How the data were processed

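RNA of 20 libraries in 7 groups was analysed from a table of expected counts per gene that the authors deposited; per the submitters' processing notes the tools named are STAR, RSEM 1.2.26 and DESeq2, without a stated role. For genome build and strand use, the labels and headers gave nothing: both are not given in the sources used here. No column of per-sample values was left unused (0 columns). Library totals were 8794777 to 12400640. The expected counts were rounded to whole numbers and tested with edgeR 4.0.16 in R 4.3.3: TMM scaling, a low-count filter by group (minimum count 10, minimum total 15), the robust quasi-likelihood test on all 20 libraries with 13 residual degrees of freedom, and Benjamini-Hochberg adjustment over 15779 genes at a threshold of 0.05. The SE of a log2 fold change was derived from its F statistic. Levels are TMM-scaled counts relative to library size (CPM), and exon lengths for values per kb and current gene names came from GENCODE M21, in which 67 of the 79 members have the same start and end as in the deposited annotation. The scripts were tested on simulated data.

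The members and lists were chosen with earlier results of these data known. Named with values in every library were members with a group mean of at least 5 CPM in some group, plus Cdh1, Cdh2, Cdh3, Cdh5, Cdh11, Cdh13 and Pcdh12; members of 1 to 5 CPM could be named, and up to 4 genes of each partner list. A group at 0 counts gives a fold as a bound from 3 counts over the group, and 1 to 3 counts give a ratio with its 95% counting interval; both cover counting error only. Alternatives were RLE and upper quartile scaling, no low-count filter, DESeq2 1.42.0, limma-voom 3.58.1, a log2 fold change over 1, a fit of the compared groups alone, leaving out line libraries under 3% intron reads, the intron share as a covariate, each library left out, and repertoire levels of 0.5 and 5 CPM. Summing the MDSC libraries to 1 was added after seeing the data.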

Additional observations from a re-analysis of the deposited data

Results flagged for a closer look

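Signal was found in genes that the naming rule leaves out. Pcdhgc3, listed under another symbol in the deposited annotation, averaged 313 CPM in C12, 512 CPM in ih_CTC, 224.7 CPM in ih_DCTC, 229.8 CPM in ih_BCTC and 519.9 CPM in ih_STC_BM, against 0.563 CPM in MDSC and 45.0 CPM in MSC. The polymorphic pseudogene Pcdhgb8 reached a highest line mean of 2.34 CPM, against 0 in MDSC and 0.368 CPM in MSC.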

How the results depend on the processing

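No paired analysis was possible because the labels carry no replicate numbers. Numbers of members called differed by over 1.5 times under these settings. In a fit of the compared groups alone, which tests fewer members, calls numbered 14 in C12 and 15 in ih_DCTC against MDSC, and 9 in ih_STC_BM and 14 in ih_DCTC against MSC. DESeq2 called 9 in C12 against MSC, and the intron share as a covariate left 14 in ih_CTC against MSC. Leaving out 1 library at a time gave 23 to 27 calls in C12, 28 to 31 in ih_CTC and 29 to 33 in ih_DCTC against MDSC, 14 to 22 in ih_STC_BM, 12 to 26 in ih_BCTC, 8 to 19 in C12, 9 to 19 in ih_CTC and 8 to 20 in ih_DCTC against MSC, 29 to 33 in MDSC against MSC, 12 to 23 in C12 against ih_CTC, 0 in ih_DCTC against ih_BCTC, and 25 to 37 among the lines. Over 5 CPM in all libraries, the clustered genes present numbered 0 in C12, 4 in ih_CTC, 1 in ih_DCTC, 1 in ih_BCTC, 2 in ih_STC_BM and 1 in MSC; over 0.5 CPM they numbered 9 in C12, 12 in ih_DCTC, 11 in ih_BCTC, 14 in ih_STC_BM and 1 in MDSC. Cdh5 in MDSC against MSC turned to a log2 fold change of 0.23 without MSC 2, and was -4.10 without MSC 1. The cause was not tested for the settings other than the fit of the compared groups and the left-out libraries. With upper quartile scaling the all-gene median shifted to (log2) 0.30 in C12, 0.25 in ih_CTC and 0.31 in ih_DCTC against MDSC, to 0.14 in ih_DCTC against MSC and to -0.20 in MDSC against MSC. Depth limits the rare members: a level under 0.0833 to 0.143 CPM, depending on the group, was not detectable.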
